A study of Rattus norvegicus with 6 samples.

Results

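The prostanoid pathway was described here by 8 genes, 5 synthases (Ptgs1, Ptgs2, Ptgis, Ptges and Ptgds) and 3 receptors (Ptger2, Ptger4 and Ptgfr), in stromal cells grown from the blood and from the marrow of the same rats. Every probe set whose only platform gene symbol was one of these 8 was taken, which gave 10 of the 15923 probe sets on the array, for 8 of the 10412 genes that the annotation names singly. Ptges and Ptgfr had 2 probe sets each and the other genes 1. The 8 genes were chosen by pathway, and selected on earlier PBMSC minus BMMSC differences of these same arrays, in which Ptgis stood out, so the members' levels and differences are given as a description and without p-values. Adjusted p-values are given only for genes outside the 8, which are other genes of the pathway and cell type markers. For the members, only the number past the threshold and the gene concerned are stated, as a description and not as a test of that gene.

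The groups were 3 cultures of peripheral blood derived stromal cells (PBMSCs) and 3 of bone marrow derived ones (BMMSCs), 1 of each from rats S4, S5 and S6, all of which carry a GFP transgene. Mononuclear cells of both sources were separated on a density gradient, plated in the same medium with 15% fetal bovine serum, and expanded to passage 2, and each culture's RNA (10 µg) was labelled and hybridised to 1 Affymetrix RAE230A array. The labels do not give the transgene's promoter, the strain or the age of the rats, and each culture is the adherent population of 1 animal, not a clone. Values are log2 signals as deposited (the base was read from their range of 0 to 13.31), a difference is always PBMSC minus BMMSC on that log2 scale, given with the SE of the fit, and n = 3 rats throughout.

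Prostanoids are local lipid signals made from arachidonic acid. Phospholipases release the acid from membranes, the cyclooxygenases COX-1 (Ptgs1) and COX-2 (Ptgs2) turn it into the unstable intermediate prostaglandin H2, and a terminal synthase then decides the product: prostacyclin synthase (Ptgis) makes prostacyclin, the prostaglandin E synthases make prostaglandin E2, the D synthases make prostaglandin D2, and thromboxane synthase makes thromboxane. The products leave the cell and act on G-protein-coupled receptors of their own or neighbouring cells. Prostaglandins of the E and F series are then taken up and inactivated by 15-hydroxyprostaglandin dehydrogenase (Hpgd). In vessel walls prostacyclin is known for relaxing smooth muscle and holding back platelets, and prostaglandin E2 from marrow stromal cells is known for damping immune cells.

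The cultures carried the markers of stromal cells together with those of macrophages. All 8 stromal markers lay above the signal filter (the median of all values, 8.18, exceeded on at least 3 of 6 arrays). Of 14 macrophage markers on the array 10 did so, with summed unlogged signals of 12371 to 17222 in PBMSCs and 8281 to 17818 in BMMSCs. Thy1, a defining stromal surface marker, was at 7.02, 9.42 and 7.41 in PBMSCs and 9.38, 7.68 and 9.84 in BMMSCs of rats S4, S5 and S6, so the S5 pair ran against the other pairs. Of the other stromal markers, Eng, Nt5e, Pdgfra and Col1a1 differed in one direction in all 3 rats, and Cd44, Vim and Col1a2 did not. Eng, or endoglin, was higher in PBMSCs by 1.62 ± 0.23 (adjusted p = 0.038 in limma, the one stromal marker past the threshold of 0.05), and Nt5e, or CD73, had a difference of 0.77 ± 0.15 (adjusted p = 0.0862). Pdgfra, a growth factor receptor of stromal cells, had a difference of -1.93 ± 0.35 (adjusted p = 0.0681). Of 5 mesothelial markers on the array 1 lay above the filter, Msln, which differed by -1.24 ± 0.11 (adjusted p = 0.00911 in limma). That list summed to 820 to 984 in PBMSCs and 1095 to 1681 in BMMSCs. Below the filter, Wt1 and Krt19 of the list were higher in PBMSCs of all 3 rats, by 0.45 and 0.14. Array medians were 8.12 to 8.22. In RNA from whole cultures, fewer cells of a type and less RNA per cell cannot be told apart.

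Prostacyclin synthase was the member with the widest difference between the 2 kinds of culture, and the only one higher in PBMSCs without overlap. Ptgis (probe set 1370012_at) had log2 signals of 11.88, 10.18 and 11.65 in PBMSCs of rats S4, S5 and S6, against 4.08, 5.82 and 4.72 in BMMSCs. Every blood culture thus lay more than 4 units above every marrow culture, and the S5 pair had both the lowest blood value and the highest marrow value. The means were 11.24 ± 0.92 in PBMSCs and 4.87 ± 0.88 in BMMSCs (SD, n = 3 each), a difference of 6.36 ± 0.63, with 7.80, 4.36 and 6.93 in the 3 rats. It was the third largest positive difference among 8135 probe sets above the filter, which Ptgis passed through its blood arrays alone.

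The size of the Ptgis difference depends on how far the low marrow values can be trusted. Taken at face value it is 82.3-fold. All marrow values lay below 6.97, the 25th percentile of the table, where no background level is known, and with every value under that percentile raised to it the difference was 4.27. Leaving out 1 rat gave 5.64 to 7.36. Cells known for Ptgis in vessels were looked at through their markers. Smooth muscle and pericyte markers, 4 of 9 above the filter, summed to 5349 to 7681 unlogged signal units in PBMSCs and 5145 to 5801 in BMMSCs. The actin-binding protein gene Tagln was at 11.31, 10.82 and 11.64 in PBMSCs against 9.98, 10.49 and 10.52 in BMMSCs, without overlap (difference 0.93 ± 0.21, adjusted p = 0.131), and the smooth muscle actin gene Acta2 was at 10.41, 10.10 and 10.64 in PBMSCs against 9.68, 10.06 and 9.57 in BMMSCs, also without overlap (difference 0.61 ± 0.21, adjusted p = 0.286). Pdgfrb and Des, a pericyte receptor and the muscle filament desmin, each differed by -0.38 and were lower in PBMSCs of all 3 rats. Pdgfrb did so without overlap, at 10.52, 10.54 and 11.01 in PBMSCs against 11.07, 11.08 and 11.05 in BMMSCs. Below the filter, Rgs5 and Cspg4 of the same list were also lower in all 3 rats without overlap (differences -0.32 ± 0.13 and -0.69 ± 0.21). Cnn1 and Lmod1 overlapped, with differences of -0.01 and 0.22. Myh11, the smooth muscle myosin, was below the filter at 6.07 to 6.48 in PBMSCs and 6.55 to 7.93 in BMMSCs. Endothelial markers, 2 of 10 above the filter, summed to 1760 to 1942 in PBMSCs and 1617 to 1988 in BMMSCs. The 2 were Egfl7, at 8.78 ± 0.16 in PBMSCs and 8.73 ± 0.27 in BMMSCs, and Flt1, at 8.77 ± 0.10 in PBMSCs and 8.83 ± 0.05 in BMMSCs (SD). Pecam1, the endothelial adhesion molecule, was far dimmer, at 3.78 to 5.32 in PBMSCs and 3.14 to 4.59 in BMMSCs. None of the markers in these lists was at 0. The part of these cells in the Ptgis difference was not tested.

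**Figure D1:**
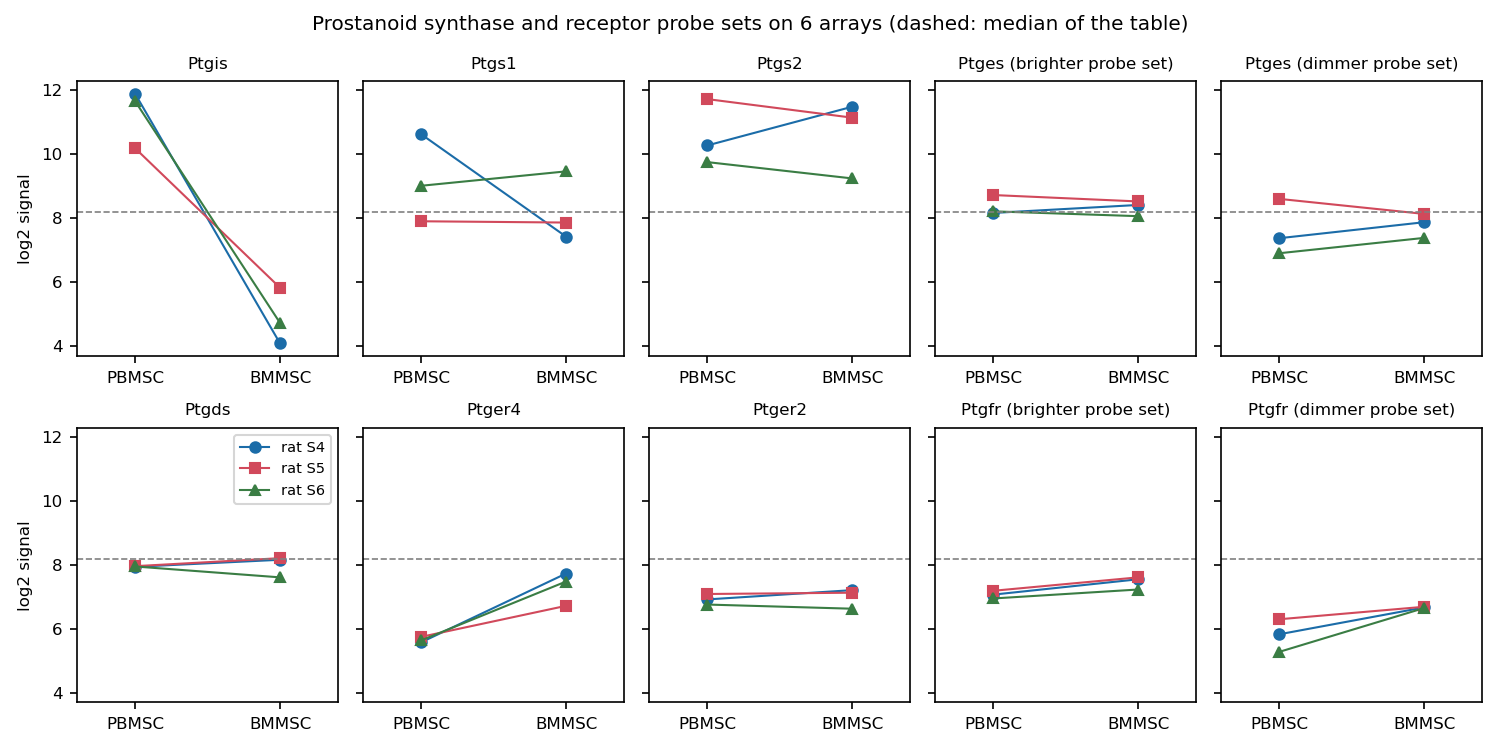
Log2 signal (vertical axis, shared) of the 10 probe sets of the 8 genes in PBMSCs and BMMSCs, with a line joining the cultures of each rat and a dashed line at the median of the table, 8.18. Ptgis is far higher in PBMSCs of all 3 rats, Ptgs1 in rat S4 alone, Ptgs2 and Ptges spread over rats by more than their mean differences, and Ptger4 and Ptgfr lie lower in PBMSCs at dim levels.

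Against the whole array, 1 of the 4 member probe sets above the filter, that of Ptgis, passed the threshold of the limma fit (adjusted p of 0.05, rat as a term), where 2.15% of the 8135 tested probe sets did (0.983% higher and 1.17% lower). Blood and marrow values did not overlap in 4 of the 10 member probe sets, 1 with blood above marrow and 3 with blood below, where 16.3% of all probe sets did not overlap (6.95% with blood above and 9.39% with blood below). The median difference of the 10 was -0.06, and that of all probe sets -0.01. These counts describe genes picked with the contrast in view, and nothing is read from them.

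**Figure D2:**
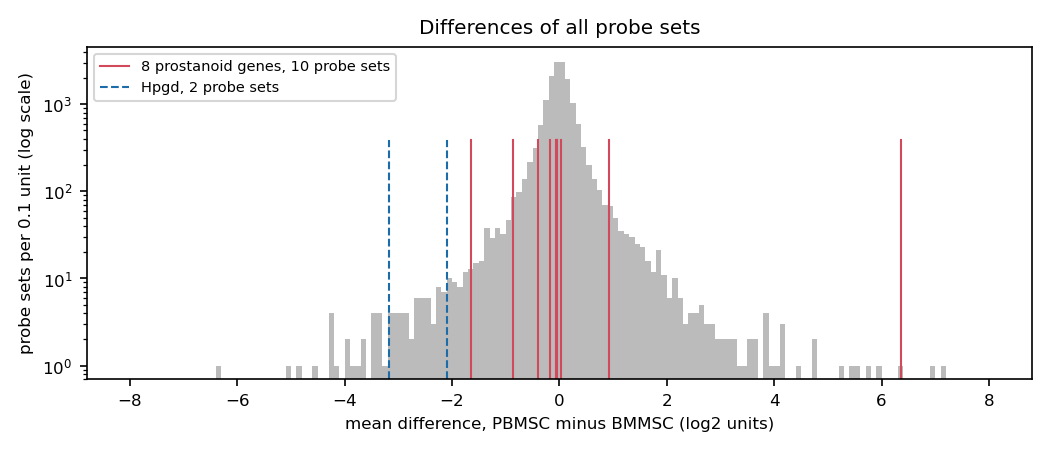
Number of probe sets per 0.1 log2 unit (vertical axis, log scale) by mean difference, PBMSC minus BMMSC (horizontal axis), with solid lines at the 10 member probe sets and dashed lines at the 2 of Hpgd. Ptgis lies at 6.36 in the far right tail, and Hpgd lies at -3.17 and -2.10 in the left. Ptger4 at -1.65, Ptgs1 at 0.93 and the dimmer Ptgfr probe set at -0.87 also exceed 95% of all probe sets in absolute difference. The other member probe sets lie nearer 0.

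The cyclooxygenases, which supply every terminal synthase, spread over rats by more than the mean difference between sources. COX-1 is known as the steadily expressed form of many tissues, and COX-2 as the form that growth factors, cytokines and serum induce. The 250 bases before their annotated starts are shown because the 2 genes catalyse the same step but are controlled differently. They are RefSeq sequences of build GRCr8, read 5′ to 3′ on the gene's strand, at chr3:39981169-39981418 (plus strand) for Ptgs1 and chr13:64713813-64714062 (plus strand) for Ptgs2, with motif matches in capitals.
Ptgs1: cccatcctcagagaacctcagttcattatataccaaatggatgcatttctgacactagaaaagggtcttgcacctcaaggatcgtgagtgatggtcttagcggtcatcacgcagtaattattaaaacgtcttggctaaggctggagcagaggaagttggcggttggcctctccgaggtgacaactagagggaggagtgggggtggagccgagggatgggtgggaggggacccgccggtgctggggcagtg
Ptgs2: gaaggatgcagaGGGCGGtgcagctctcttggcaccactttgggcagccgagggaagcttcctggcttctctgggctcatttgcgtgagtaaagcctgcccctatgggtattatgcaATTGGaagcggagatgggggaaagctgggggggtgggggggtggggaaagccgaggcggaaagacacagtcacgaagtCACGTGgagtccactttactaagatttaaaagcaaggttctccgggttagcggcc
Both strands were searched for 8 short motifs. The general promoter elements among them were the TATA box (spelled TATAAA), the GC box (spelled GGGCGG) and the CCAAT box. The elements bound by regulated factors were the cAMP response element (spelled TGACGTCA), its shorter core (spelled TGACG, which overlaps every full element), the E-box (spelled CACGTG), the GATA site (spelled AGATAA) and the AP-1 site (spelled TGANTCA). The Ptgs2 window held a GC box, a CCAAT box on the opposite strand and, at positions -55 to -50 from the start, an E-box. Of 27457 windows of the same length in the table, 32.4% held a GC box, 34.3% a CCAAT box and 5.79% an E-box. The Ptgs1 window held none of the 8, which says only that these letters were not in it.

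Ptgs2 (1368527_at) was bright in all 6 cultures, at 10.27, 11.72 and 9.75 in PBMSCs against 11.48, 11.14 and 9.24 in BMMSCs of rats S4, S5 and S6. Blood was lower than marrow in rat S4 by 1.21 and higher in the other two, by 0.58 and 0.51, and the groups overlapped. Rat S6 had the lowest value in both sources. The difference was -0.04 ± 0.37, between means of 10.58 ± 1.02 in PBMSCs and 10.62 ± 1.21 in BMMSCs (SD), so each group spread over more than 1 log2 unit while the means lay close.

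Ptgs1 (1368259_at) was at 10.62, 7.90 and 9.01 in PBMSCs against 7.42, 7.86 and 9.46 in BMMSCs. The S4 pair alone stood apart, with blood 3.20 above marrow, while the S5 and S6 pairs differed by 0.04 and -0.45. Its difference of 0.93 ± 0.69 rested on that rat, and without rat S4 it was -0.20. Macrophages are known to express COX-1, and the summed signal of the 14 macrophage markers was 17222, 12371 and 17048 in PBMSCs against 8281, 12519 and 17818 in BMMSCs of the same rats. Like Ptgs1, this sum was far higher in PBMSCs in the S4 pair, nearly equal in the S5 pair and slightly lower in PBMSCs in the S6 pair. The lysosomal marker Cd68 was at 11.00, 10.94 and 11.00 in PBMSCs and 9.64, 10.78 and 11.11 in BMMSCs. Not every listed marker had this pattern. In the S4 pair Aif1 was at 8.71 in PBMSCs against 9.14 in BMMSCs, and C1qb at 9.27 against 9.35. Among PBMSCs the sums of rats S4 and S6 were close, while Ptgs1 was at 10.62 and 9.01. The 3 platelet markers on the array summed to 3615, 4021 and 3228 in PBMSCs and 1949, 3673 and 2541 in BMMSCs. Only 1 of them, Pf4, lay above the filter, at 11.75, 11.90 and 11.57 in PBMSCs against 10.79, 11.75 and 11.20 in BMMSCs, so the sum mostly reads that gene. Below the filter, Ppbp was lower in PBMSCs of all 3 rats (difference -0.28 ± 0.14), and Itga2b overlapped (0.05 ± 0.15). The part of macrophages or platelets in the Ptgs1 values was not tested.

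**Figure D3:**
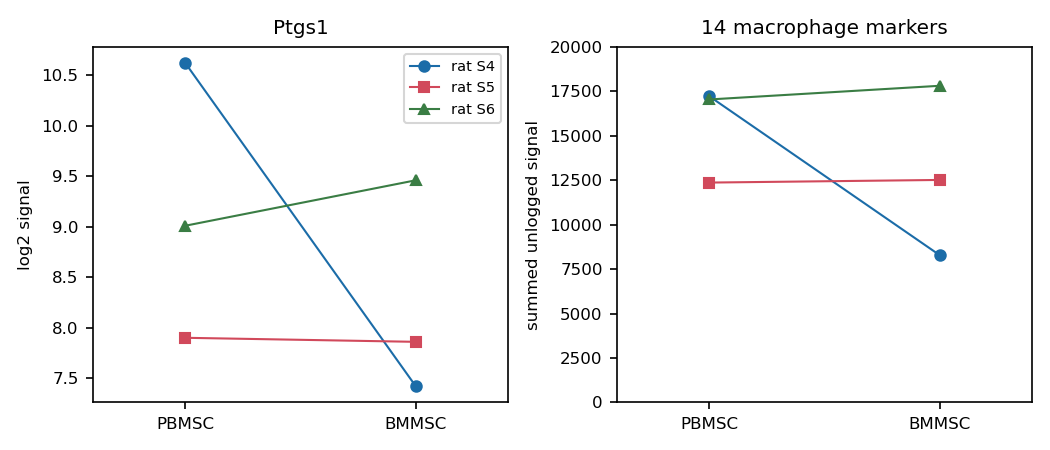
Left, log2 signal of Ptgs1; right, summed unlogged signal of 14 macrophage markers, each in PBMSCs and BMMSCs with a line joining the cultures of each rat. In both panels the S4 pair is far higher in PBMSCs (10.62 against 7.42, and 17222 against 8281), the S5 pair is nearly level and the S6 pair slightly lower in PBMSCs.

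The synthases that compete with Ptgis for prostaglandin H2 had mean differences near 0. Ptges, the inducible membrane-bound prostaglandin E synthase that works with COX-2, was at 8.16, 8.72 and 8.21 in PBMSCs against 8.41, 8.52 and 8.06 in BMMSCs on its brighter probe set (1368015_at), a difference of 0.03 ± 0.14. Its dimmer probe set (1368014_at) read 7.37, 8.60 and 6.90 in PBMSCs against 7.87, 8.13 and 7.38 in BMMSCs, a difference of -0.17 ± 0.24. On both probe sets rat S5 was highest and the groups overlapped. Rat S5 was also highest for Ptgs2 among PBMSCs, and rat S6 lowest for Ptgs2 and for both Ptges probe sets among BMMSCs. Ptgds, the lipocalin-type prostaglandin D synthase, was at 7.93, 7.95 and 7.94 in PBMSCs against 8.15, 8.20 and 7.60 in BMMSCs, a difference of -0.04 ± 0.17. It was above the table's median on 1 array only and was not tested.

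Of the other synthases on the array 5 of 7 passed the filter, and none passed the threshold in limma (0 at an unadjusted p under 0.05). Ptges3, the cytosolic E synthase that doubles as the HSP90 co-chaperone p23, averaged 11.35 ± 0.04 in PBMSCs and 11.42 ± 0.07 in BMMSCs, a difference of -0.07 ± 0.12 (adjusted p = 0.896). Ptges2, the second membrane-associated E synthase, differed by 0.11 ± 0.13 (adjusted p = 0.818), and Cbr1, a carbonyl reductase that can turn prostaglandin E2 into F2alpha, by 0.10 ± 0.12 (adjusted p = 0.816). Akr1b1, aldose reductase, which has prostaglandin F synthase activity in humans, stood at 10.99 ± 0.18 in PBMSCs and 10.75 ± 0.14 in BMMSCs (difference 0.24 ± 0.15, adjusted p = 0.582). These genes varied by little within either group. Tbxas1, thromboxane synthase, was at 8.60, 8.34 and 8.68 in PBMSCs against 8.14, 8.62 and 8.49 in BMMSCs (difference 0.12 ± 0.17, adjusted p = 0.857). Hpgds, the D synthase of mast cells and other blood cells, was below the filter at 7.16 ± 0.06 in PBMSCs and 7.35 ± 0.10 in BMMSCs. Akr1c14, an aldo-keto reductase also below it, was erratic, and 1 of its probe sets read 0.38, 7.74 and 3.63 in PBMSCs against 7.55, 5.85 and 6.31 in BMMSCs.

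On the question of which prostanoid each kind of culture is equipped to make, Ptgis alone among the terminal synthases read here had a mean difference above 1 log2 unit with the same sign in all 3 rats. The E, F and thromboxane branches had synthases above the filter, with mean differences between -0.07 and 0.24 for the genes tested outside the 8 and of 0.03 for the brighter probe set of Ptges. Signals of different probe sets cannot be ranked against each other, no prostanoid was measured, and mRNA of a synthase does not give the amount of its product.

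Outside the 8 genes, a wide difference lay in breakdown. Hpgd, the 15-hydroxyprostaglandin dehydrogenase that makes the first inactivating step on prostaglandins of the E and F series, fell in PBMSCs. Its tested probe set (1376191_at) was at 5.79, 6.02 and 5.80 in PBMSCs against 9.91, 8.83 and 8.38 in BMMSCs of rats S4, S5 and S6, and the PBMSCs lay together, more than 2 units below every marrow culture. It fell by 3.17 ± 0.31, between means of 5.87 ± 0.13 in PBMSCs and 9.04 ± 0.79 in BMMSCs (SD), with an adjusted p of 0.0112 in limma. It passed the filter through its BMMSC arrays alone, so the difference itself decided that it was tested, and over all probe sets without a filter its adjusted p was 0.0478. A second probe set (1387631_at), just under the filter, read 6.52, 6.55 and 6.36 in PBMSCs against 9.30, 8.35 and 8.09 in BMMSCs, a difference of -2.10 ± 0.25 (adjusted p = 0.064 without a filter). Both were lower in PBMSCs in 3 of 3 rats. Over the alternatives the adjusted p of the tested probe set ran from 0.00315 to 0.152, the highest being without rat S4, where the difference was -2.70, and it was 0.0528 without rat S6. Blood values lay below 6.97, so the fold is approximate, and with low values raised to that level the difference was -2.07.

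The windows before the starts of Hpgd and of Ptger4, the member with the next widest difference after Ptgis, are shown because both genes were lower in PBMSCs of every rat. They lie at chr16:39034832-39035081 (minus strand) for Hpgd and chr2:56073523-56073772 (minus strand) for Ptger4, again as 250 bases of GRCr8 from RefSeq read on the gene's strand, with motif matches in capitals.
Hpgd: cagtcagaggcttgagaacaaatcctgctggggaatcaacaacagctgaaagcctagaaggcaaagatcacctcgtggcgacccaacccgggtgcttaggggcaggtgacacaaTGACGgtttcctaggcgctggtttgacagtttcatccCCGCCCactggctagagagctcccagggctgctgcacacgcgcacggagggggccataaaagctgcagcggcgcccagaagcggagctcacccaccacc
Ptger4: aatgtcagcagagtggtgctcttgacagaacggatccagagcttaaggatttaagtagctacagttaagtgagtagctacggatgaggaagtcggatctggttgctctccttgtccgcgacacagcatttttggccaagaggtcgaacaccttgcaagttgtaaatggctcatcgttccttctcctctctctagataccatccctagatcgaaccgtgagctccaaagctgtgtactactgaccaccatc
The Hpgd window held the core of the cAMP response element at positions -136 to -132 and a GC box on the opposite strand at positions -99 to -94 from the start. The core was found in 19.0% of all windows of this length and the GC box in 32.4%. The Ptger4 window held none of the 8 motifs, so the 2 windows shared no match. Of the 8 members 7 were found in the promoter table, Ptgis not.

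The other genes of transport and breakdown lay below the filter. Slco2a1 encodes the prostaglandin transporter that brings prostaglandins to Hpgd. Its probe set 1372889_at was at 6.00, 5.63 and 6.65 in PBMSCs against 7.74, 7.18 and 7.34 in BMMSCs, without overlap (difference -1.33 ± 0.24, adjusted p = 0.148 without a filter). The other probe set, 1387492_at, differed by only -0.12 ± 0.15, so the 2 probe sets did not give the same difference. Slco3a1, an organic anion transporter able to carry prostaglandins, ran the other way on both of its probe sets. The brighter, 1373734_at, was at 9.76, 8.17 and 9.62 in PBMSCs against 7.65, 7.23 and 7.63 in BMMSCs (difference 1.68 ± 0.27, adjusted p = 0.118), and the dimmer differed by 1.34 ± 0.26 (adjusted p = 0.161), both without a filter. As with Ptgis, the S5 blood culture was the lowest of the 3. Ptgr1, a reductase acting on prostaglandin metabolites, was at 9.37, 7.64 and 7.58 in PBMSCs against 7.77, 8.75 and 5.98 in BMMSCs, higher in the S4 and S6 pairs and lower in the S5 pair.

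**Figure D4:**
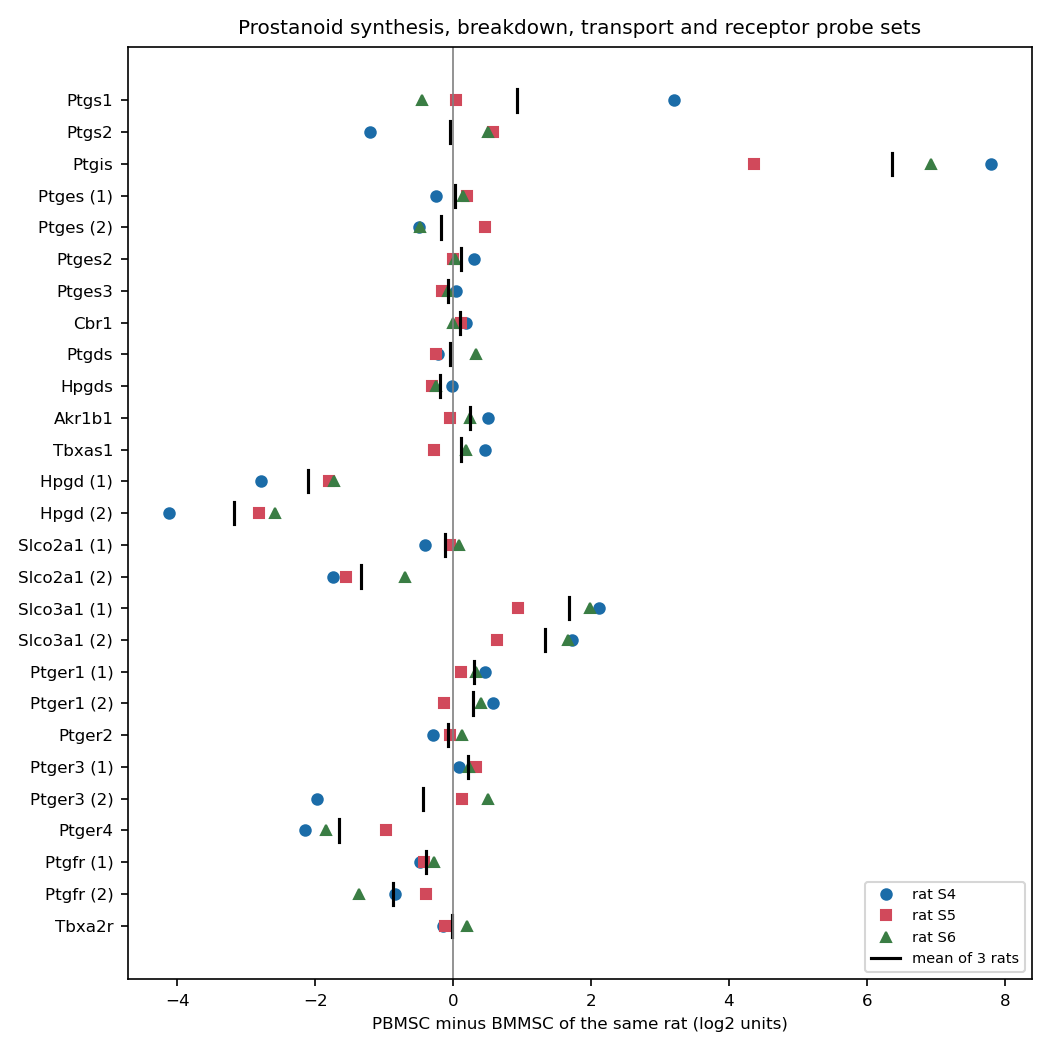
PBMSC minus BMMSC difference in log2 units (horizontal axis) for synthases, breakdown and transport genes and receptors, 1 point per rat and a black bar at the mean of 3 rats; (1) is the brighter and (2) the dimmer probe set of a gene. Ptgis lies between 4.36 and 7.80 and both Hpgd probe sets between -4.12 and -1.73, while most other synthases lie near 0 and Ptgs1 is spread by rat S4.

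Among receptors, all 4 member probe sets lay below the median of the table on all 6 arrays, so none was tested and their folds are approximate. Ptger4, the EP4 receptor through which prostaglandin E2 raises cAMP, was at 5.57, 5.74 and 5.63 in PBMSCs against 7.72, 6.71 and 7.47 in BMMSCs. The PBMSCs lay within 0.17 of each other and below every marrow culture. The difference was -1.65 ± 0.26, with -2.15, -0.97 and -1.84 in the 3 rats, and it shrank to -0.42 when values under 6.97 were raised to that level. Ptger2, the EP2 receptor, which also raises cAMP, was at 6.91, 7.08 and 6.75 in PBMSCs against 7.20, 7.12 and 6.62 in BMMSCs, with overlapping groups and a difference of -0.07 ± 0.14.

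Ptgfr, the receptor of prostaglandin F2alpha, was lower in PBMSCs of all 3 rats on both probe sets. The brighter (1369127_a_at) read 7.06, 7.18 and 6.94 in PBMSCs against 7.54, 7.60 and 7.22 in BMMSCs, and the dimmer (1369126_at) 5.82, 6.29 and 5.27 in PBMSCs against 6.66, 6.68 and 6.64 in BMMSCs. Neither pair of groups overlapped, and the differences were -0.39 ± 0.13 and -0.87 ± 0.22. Of the other receptors, Ptger3, the EP3 receptor that lowers cAMP, was at 8.60 ± 0.12 in PBMSCs and 8.38 ± 0.10 in BMMSCs on its tested probe set (difference 0.22 ± 0.12, adjusted p = 0.529). Ptger1 and the thromboxane receptor Tbxa2r were below the filter, with Tbxa2r at 6.58 ± 0.08 in PBMSCs and 6.60 ± 0.26 in BMMSCs. Ptgfrn, a membrane protein named as an inhibitor of Ptgfr, differed by 0.09 ± 0.15 (adjusted p = 0.884). The prostacyclin receptor gene Ptgir was looked for, but no probe set had it as its only platform symbol. The levels of the receptor for the product of Ptgis are therefore not known from these data.

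Upstream of the cyclooxygenases, none of 13 tested genes of arachidonate release and supply passed the threshold in limma, 3 had an unadjusted p under 0.05, and their median difference was -0.07. Pla2g4a, the cytosolic phospholipase A2 that releases arachidonic acid, averaged 9.55 ± 0.15 in PBMSCs and 9.54 ± 0.38 in BMMSCs (difference 0.02 ± 0.20, adjusted p = 0.99). Pla2g2a, a secreted phospholipase A2, was at 10.00, 9.46 and 7.35 in PBMSCs against 6.84, 6.43 and 7.32 in BMMSCs, with wide gaps in rats S4 and S5 and none in rat S6 (difference 2.07 ± 0.66, adjusted p = 0.362 without a filter). Mgll, the monoacylglycerol lipase that frees arachidonic acid from an endocannabinoid, was read by 4 probe sets, all below the filter. One (1388644_at) was at 9.17, 6.61 and 9.25 in PBMSCs against 4.92, 5.24 and 5.67 in BMMSCs, a difference of 3.07 ± 0.57 (adjusted p = 0.155 without a filter). The probe sets 1370831_at and 1375247_at were also higher in PBMSCs on average, by 1.51 ± 0.37 without overlap and 1.30 ± 0.58 with overlap. Only 1375355_at had the opposite sign, at -0.51 ± 0.20. Pla2g6, a calcium-independent phospholipase A2, and Acsl3, an acyl-CoA synthetase, differed by -0.41 ± 0.16 and -0.43 ± 0.15 (adjusted p = 0.321 and 0.294). Plaat3, a phospholipase A and acyltransferase, was at 9.35, 8.65 and 9.56 in PBMSCs against 7.91, 8.08 and 9.53 in BMMSCs, with overlapping groups (difference 0.68 ± 0.27, adjusted p = 0.351).

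Counted over all lists outside the 8 members, 58 of 91 genes on the array were tested, 1 was higher, 1 lower and 56 did not pass, with a median difference of -0.04. The 2 genes past the threshold are 3.45% of the 58, near the 2.15% of all tested probe sets, so the count says nothing particular about the pathway. Without rat S4 or without rat S6 the number past the threshold was 0, and without rat S5 it was 4. The one gene lower was Hpgd. The one higher was Cav1, caveolin-1, the coat protein of caveolae, in the list of 18 tested inducers and regulators of Ptgs2 and Ptges. It averaged 11.53 ± 0.77 in PBMSCs and 10.50 ± 0.67 in BMMSCs with overlapping groups, rose in 3 of 3 rats by a mean of 1.03 ± 0.16, and had an adjusted p of 0.0482, which lay between 0.0331 and 0.403 over the alternatives, the highest with the rat left out of the fit. In the same list the hypoxia factor gene Hif1a differed by -0.51 ± 0.14, the transcription factor gene Cebpb by -0.51 ± 0.17 and the glucocorticoid-induced gene Tsc22d3 by 0.60 ± 0.20 (adjusted p = 0.175, 0.253 and 0.27). Il6, a cytokine induced together with Ptgs2, was at 10.40, 11.70 and 9.35 in PBMSCs and 11.37, 10.54 and 10.33 in BMMSCs, with rat S5 highest and rat S6 lowest among PBMSCs, as for Ptgs2.

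None of 16 tested genes of receptor signalling and cAMP response passed in limma, and 4 had an unadjusted p under 0.05. The smallest p-values belonged to the adenylyl cyclase genes Adcy3 at 0.63 ± 0.15 and Adcy2 at -1.13 ± 0.32, and to the cAMP phosphodiesterase genes Pde4b at -0.68 ± 0.17 and Pde7a at 0.77 ± 0.21 (adjusted p = 0.139, 0.198, 0.157 and 0.185). The 2 cyclases had differences of opposite sign, as had the 2 phosphodiesterases. In the leukotriene branch, which draws on the same arachidonic acid, 3 of 12 genes on the array were tested and none passed (0 at an unadjusted p under 0.05), with Lta4h, the leukotriene A4 hydrolase, at 0.21 ± 0.12 and Ltc4s, the leukotriene C4 synthase, at 0.23 ± 0.13 (adjusted p = 0.52 and 0.529). Alox5, the 5-lipoxygenase that starts this branch, lay below the filter at 6.40, 6.96 and 6.24 in PBMSCs and 5.73, 6.18 and 6.04 in BMMSCs. Dpep1, a dipeptidase that processes leukotriene D4, was also below it, at 6.79, 7.73 and 6.98 in PBMSCs against 9.15, 8.48 and 8.08 in BMMSCs (difference -1.40 ± 0.34, adjusted p = 0.244 without a filter).

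The genes whose values over the 6 arrays followed Ptgis most closely were Cdh2 (Pearson r = 0.997), Myh9 (0.991), Tes (0.988), Ppm1f (0.986), Cadm1 (0.983) and Pik3cd (0.983), out of 6093 genes above the filter. These 6 arrays are 3 rats in 2 groups far apart, and the coefficients are given as a description with no test. Cdh2, or N-cadherin, was at 10.94, 9.82 and 10.64 in PBMSCs against 2.87, 4.35 and 3.37 in BMMSCs, and like Ptgis it had its lowest blood value and its highest marrow value in rat S5. Cadm1, a cell adhesion molecule, shared the low S5 blood value, at 10.85, 9.43 and 10.96 in PBMSCs, but not the order of the BMMSCs, at 6.04, 6.33 and 6.77. Myh9, the heavy chain of non-muscle myosin, differed far less, at 12.17 ± 0.11 in PBMSCs and 11.64 ± 0.04 in BMMSCs.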

How the data were processed

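Total RNA of 6 cultures was measured on 6 arrays, and the deposited log2 values per probe set were used as the authors left them, with a pseudocount of 0. GCOS is the tool named in the submitters' processing notes; how probes were summarised, background-corrected and normalized is not given in the sources used here. The log base is not stated and was read from the range, so folds depend on it and adjusted p do not. The 8 genes and all lists were chosen with earlier results of these data known.

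Of 15923 probe sets, 12789 had 1 platform symbol, 312 several and 2822 none; only the first were named. Probe sets above the table's median on at least 3 of 6 arrays, without 57 control probe sets, were fitted with limma 3.58.1 in R 4.3.3 (lmFit, eBayes, two-sided, rat as a fixed term, Benjamini-Hochberg over all 8135). A gene's brightest tested probe set stood for it; probe sets below the filter took their SE and adjusted p from the fit without one. The pairing comes from the series' design text. After subtracting group means, the 2 arrays of rats S4, S5 and S6 correlated at -0.29, 0.30 and 0.33. Fluidics station 1 held rats S4 and S5 and station 2 rat S6, both sources on each, so the rat term covers the station. The module within the station was 1, 3 and 1 for PBMSCs and 2, 4 and 2 for BMMSCs of rats S4, S5 and S6. No module held both sources, so module and source cannot be told apart. Empty (86) and zero (94) cells, none of them in members, stayed as they were. Simulated data were used to test the fit. In each list the genes past the threshold and up to 4 others with the smallest p were to be named; further synthases and receptors, Pla2g4a and Il6 were named after their values were seen. Further tools were Python 3.11.15 with numpy 2.4.6 and pandas 2.3.3, and matplotlib 3.10.9 for figures. The number of arrays limits the precision.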

Additional observations from a re-analysis of the deposited data

How the results depend on the processing

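Of 73 alternative values of the 8 member differences, 70 moved by less than the SD between rats. The exceptions were Ptgis at 4.27 and Ptger4 at -0.42 with low values raised to the 25th percentile, which follows from that floor, and Ptgfr at -0.63 as the mean of its probe sets. Ptgis, the only member past the threshold, kept its sign, but it was chosen with this contrast known. The differences of Ptgs1, Ptgs2, Ptges, Ptgds and Ptger2 changed sign when 1 rat was left out. Leaving out 1 rat gave 5.64 to 7.36 for Ptgis, -0.20 to 1.62 for Ptgs1, -0.35 to 0.54 for Ptgs2, -0.05 to 0.18 for Ptges, -0.24 to 0.06 for Ptgds, -0.45 to -0.35 for Ptgfr, -0.16 to 0.04 for Ptger2 and -2.00 to -1.40 for Ptger4.

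The 175 probe sets past the threshold became 104 with a common trimmed mean (55 higher, 49 lower, against 80 and 95), 108 with quantile normalization (58 and 50) and 82 without a filter, and 0 to 406 when 1 rat was left out: 0 without S4 (770 at an unadjusted p under 0.05), 406 without S5 and 44 without S6. The fit without the replicate block, that is without pairing by rat, called 130. Of the 2 pathway genes, Hpgd alone passed without the replicate block (1 gene), with the common trimmed mean (1) and with probe sets averaged (1). Under the stricter filter Hpgd was not tested and Cav1 passed (1). Without a filter the count was 0, since a brighter probe set then stood for Hpgd (adjusted p = 0.064) and Cav1 did not pass; the Hpgd probe set of the report still passed there (0.0478). Leaving out 1 rat gave 0 to 4, with 0 without S4 or S6, and with Adcy2 and Il6 joining without S5. Apart from these effects of construction, the cause was not tested.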
